A study of Homo sapiens with 6 samples.

Results

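The genes described here are 32 amino acid transporters of the solute carrier (SLC) families, followed in HFL-1 cells, an established line of human fetal lung fibroblasts, after knockdown of the transcriptional coactivator TAZ. They were taken by gene symbol from a table of 23355 genes, and the list was drawn up with earlier results of these data known. All 32 symbols were found, and 31 of them had enough counts to be tested. SLC16A10, an aromatic amino acid transporter, had 0 to 6 counts per library and was not tested.

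The groups differ by the transfected siRNA, which was a negative control (siNTC) or 1 of 2 sequences against TAZ (siTAZ #1, siTAZ #2), and total RNA was taken after 48 h. No other agent or genotype distinguishes the groups in the labels, which name a single cell line and describe the 2 libraries of each group as biological replicates. The 6 libraries held 15648055 to 32078188 counts on genes. Levels are given as CPM, counts of a gene scaled to a fixed library total, after TMM scaling. Changes are log2 fold changes with a standard error (SE), tested by edgeR's quasi-likelihood test in 1 fit of all 6 libraries. The FDR is the Benjamini-Hochberg adjusted p over the 14053 genes tested, and a gene was called at FDR below 0.05. In bulk RNA, a smaller number of cells expressing a gene and less RNA per cell cannot be told apart.

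The mRNA of TAZ, listed as WWTR1, was at 132 and 131 CPM with siNTC, at 26.4 and 28.4 CPM with siTAZ #1 and at 46.1 and 43.1 CPM with siTAZ #2. It was lower in all 4 siTAZ libraries than in either siNTC library. The log2 fold change of WWTR1 was -2.26 (SE 0.10, FDR 0.00062) with siTAZ #1 and -1.56 (SE 0.10, FDR 0.00068) with siTAZ #2. All 9 fibroblast markers examined were at 28.9 CPM or more in every library, though 4 were called lower and 2 higher with siTAZ #1, and 5 lower and 2 higher with siTAZ #2. Of 9 markers of other cell types, 8 stayed at 2.96 CPM or less in every library, while the lysosomal protein gene CD68 averaged 74.4 CPM with siNTC, was at 75.4 and 68.7 CPM with siTAZ #1 and at 37.8 and 48.3 CPM with siTAZ #2. The part of these markers in the transporter results was not tested. In replicate 2 of siTAZ #1, the end of the genome, that is chromosome 22 from RANGAP1 on with X and Y, gave 0.246% of the counts, against 3.58% to 3.74% in the other 5 libraries. None of the 32 transporter genes lies in that region, but the lost counts widen the spread that the fit estimates for every gene.

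Amino acids cross membranes on carriers that differ in substrate and in driving force. Sodium-coupled carriers of the SLC1, SLC6 and SLC38 families load the cell, exchangers such as SLC7A5 trade one amino acid for another, and several carriers sit on lysosomes or mitochondria. SLC3A2 (4F2hc, CD98) is the heavy chain that brings the light chains SLC7A5, SLC7A6, SLC7A7, SLC7A8 and SLC7A11 to the cell surface. In many cells, some of these genes are transcribed by ATF4 when amino acids run short, together with enzymes that make amino acids.

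For the regulatory background of the results, stretches of 5 promoters are shown, from 120 bases before to 10 bases after an annotated start, 5′ to 3′ on the gene's own strand (RefSeq, GRCh38.p14). SLC7A5 and SLC6A9 were chosen as transporters lowered by both siRNAs, and SLC3A2 as the heavy chain lowered by siTAZ #1. SLC1A5 and SLC38A1 were chosen as transporters lowered by siTAZ #2 with a match before the start. SLC3A2 and SLC1A5 each have 3 annotated starts and SLC38A1 has 2, and the windows shown are those with matches before the start. SLC38A2 and SLC25A12, also called lower with siTAZ #2, have windows without any match and are not shown. SLC7A1, called lower with siTAZ #2 too, has its match (TGATGAAA) from base 8 after the start and is not shown either. Capitals mark matches, on either strand, to TGATGNAA (the core of the C/EBP-ATF response element that ATF4 binds), GGAATG (the TEAD motif, through which TAZ acts) or TGANTCA (AP-1).
SLC7A5, chr16:87869498-87869627, minus strand: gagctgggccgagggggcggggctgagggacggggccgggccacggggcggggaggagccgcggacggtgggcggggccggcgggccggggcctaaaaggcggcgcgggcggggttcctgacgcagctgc
SLC6A9, chr1:44031453-44031582, minus strand: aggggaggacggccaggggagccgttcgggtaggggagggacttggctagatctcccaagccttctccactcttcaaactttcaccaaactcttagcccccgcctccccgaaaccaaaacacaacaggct
SLC3A2, chr11:62881579-62881708, plus strand: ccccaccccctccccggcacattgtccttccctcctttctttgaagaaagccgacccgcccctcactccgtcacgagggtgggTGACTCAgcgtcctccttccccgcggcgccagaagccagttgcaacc
SLC1A5, chr19:46784805-46784934, minus strand: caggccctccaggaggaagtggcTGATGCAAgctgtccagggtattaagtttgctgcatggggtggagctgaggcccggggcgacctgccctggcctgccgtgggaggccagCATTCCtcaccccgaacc
SLC38A1, chr12:46266507-46266636, minus strand: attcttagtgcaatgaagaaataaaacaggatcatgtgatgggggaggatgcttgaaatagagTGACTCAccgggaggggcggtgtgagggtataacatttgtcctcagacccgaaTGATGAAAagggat

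Promoter windows, each running from 250 bases before to 50 after a start, were given for 27 of the 32 genes, in 51 windows. TGATGNAA was found in the windows of 6 of the 27, namely SLC1A3, SLC1A4, SLC1A5, SLC3A2, SLC7A1 and SLC38A1. Over all 27305 genes with a window, 4.46% held it. These genes have 35116 windows, fewer per gene than the transporters, and counted by window the shares were 11.8% of the transporters' windows and 3.62% of all windows. AP-1 letters were found in 8 of the 27 (9.37% of all genes) and the TEAD letters in 4 of the 27 (16.7% of all genes). By window the shares were 17.6% against 7.71% for AP-1 and 7.84% against 14.0% for TEAD. The match in SLC38A1 began 4 bases before its start and that in SLC1A5 97 bases before. Such matches describe the letters only, and no binding was measured here. SLC7A11, SLC7A2, SLC6A6, SLC6A15 and SLC43A3 had no window.

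Across the transporters, 5 were lower and 3 higher with siTAZ #1, while 23 of the 31 were not called. Over all genes tested, 9.78% were lower and 10.8% higher in that comparison. With siTAZ #2, 8 transporters were lower and 2 higher (21 not called), against 14.4% lower and 14.1% higher over all genes. In this fit the shares of transporters called lower are above the background and those called higher are close to it or below, on counts of 2 to 8 genes and with no test of the shares. In either direction, 20.6% of all genes were called with siTAZ #1 and 28.5% with siTAZ #2. The median change of the transporters on the log2 scale was -0.04 and -0.15 in turn, beside 0.02 and 0.01 over all genes. Both comparisons share the siNTC libraries. Leaving out replicate 1 of siTAZ #1 leaves only replicate 2 in that group, the library with the region of lost counts. Genes of that region are in the share of all genes called, with siTAZ #1 then read from that library alone. The same fit is named below for single transporters, none of which lies in that region. The share of all genes called moved with the libraries in the fit. The counts of transporters moved with it or stayed the same in the fits listed next, but not in every fit. Without replicate 1 or replicate 2 of siTAZ #2, more transporters than in the main fit were called higher with siTAZ #1, while the share of all genes fell. Leaving out replicate 1 of siTAZ #1 gave 7 lower and 7 higher with siTAZ #1 (17.8% and 17.0% of all genes), so that the higher share was then above the background too, and 10 lower and 5 higher with siTAZ #2 (20.5% and 20.6%). Leaving out replicate 2 of siTAZ #1 gave 8 and 4 with siTAZ #1 (11.1% and 11.7%), and 10 and 5 with siTAZ #2 (20.6% and 20.8%). Leaving out siNTC replicate 1 gave 3 and 1 with siTAZ #1 (2.06% and 1.94%), and 3 and 1 with siTAZ #2 (5.29% and 4.3%). Leaving out siNTC replicate 2 gave 3 and 1 with siTAZ #1 (1.89% and 1.91%), and 3 and 2 with siTAZ #2 (4.88% and 4.2%). Leaving out replicate 2 of siTAZ #2 gave 4 and 2 with siTAZ #2 (6.87% and 5.6%).

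Set against siNTC, 14 of the 31 transporters were called with at least 1 siRNA, against 38.2% of all genes, and 4 with both, against 10.7% of all genes. Called with both were SLC6A15 (higher), SLC7A5 and SLC6A9 (lower) and SLC6A6, which was lower with siTAZ #1 and higher with siTAZ #2. Called with siTAZ #1 only were SLC3A2 and SLC43A2 (lower) and SLC43A3 and SLC36A1 (higher). Called with siTAZ #2 only, all lower, were SLC7A11, SLC7A1, SLC1A5, SLC38A1, SLC38A2 and SLC25A12. Whether these genes differ between the siRNAs is tested directly further on.

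**Figure D1:**
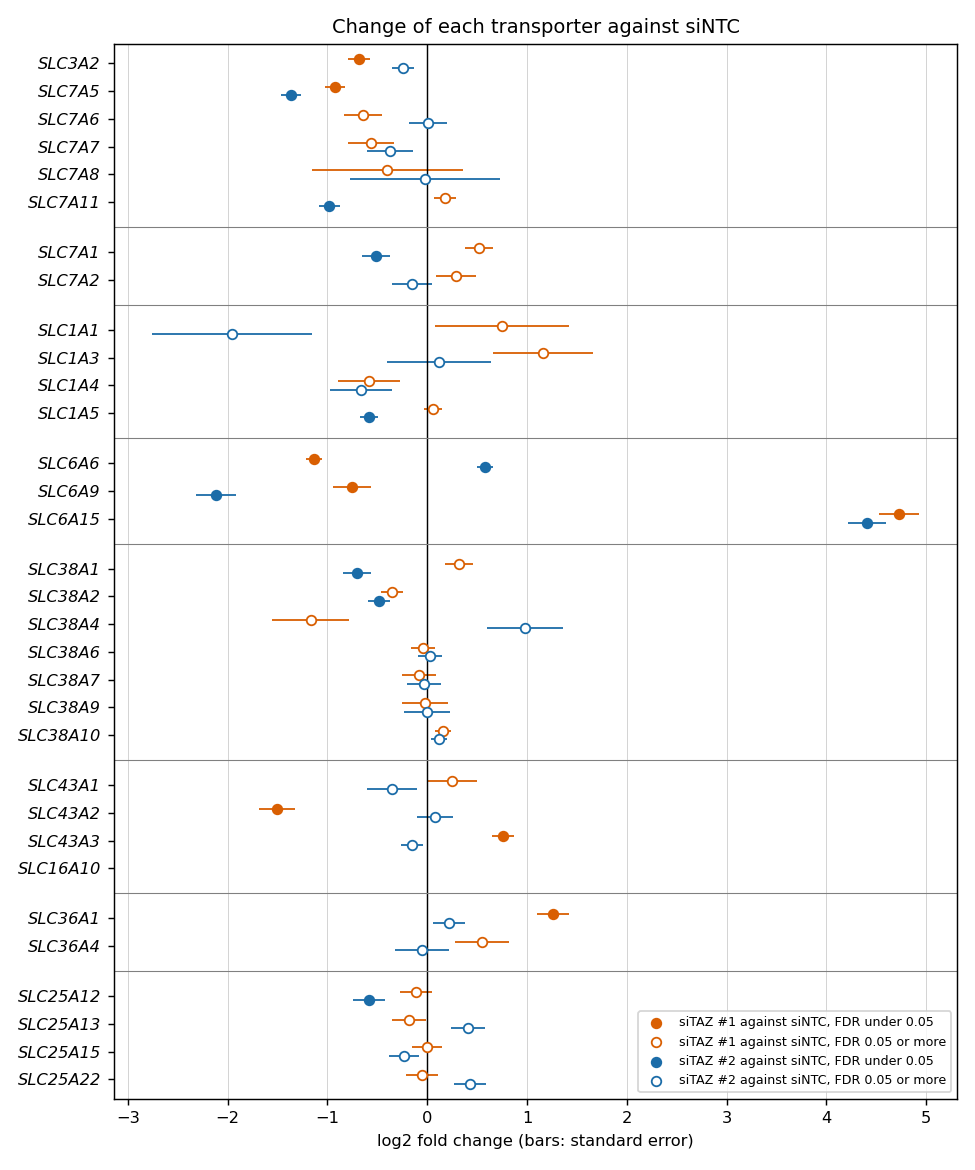
log2 fold change against siNTC of each transporter (x axis) with siTAZ #1 (orange) and siTAZ #2 (blue), with bars for the standard error; filled points have an FDR under 0.05, and lines part the groups by role. SLC6A15 lies alone at 4.73 and 4.41, while the other points lie between -2.12 and 1.26. SLC16A10 was not tested.

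SLC6A15 stood apart from the others. It encodes a sodium-dependent carrier of neutral amino acids, chiefly branched-chain amino acids and proline, known mostly from brain. The gene lies on chromosome 12 from 85253270 to 85307408 on the minus strand (GRCh37), and none of its exon bases overlaps an exon of another annotated gene. Its raw counts were 184 and 144 with siNTC, 3783 and 10010 with siTAZ #1, and 4387 and 3920 with siTAZ #2.

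On the CPM scale, SLC6A15 was at 11.7 and 9.09 with siNTC, at 244 and 307 with siTAZ #1 and at 205 and 237 with siTAZ #2. Every siTAZ library was far above both siNTC libraries, and the replicates of a group lay close together compared with that gap. The log2 fold change was 4.73 (SE 0.20, FDR 0.00056) with siTAZ #1, a 26.5-fold rise. With siTAZ #2 it was 4.41 (SE 0.19, FDR 0.00037), a 21.3-fold rise. Among the 14053 genes tested these were the 13th and 14th highest fold changes. The next largest change among the transporters, in either direction, had a size of 1.51 with siTAZ #1 (SLC43A2, lower) and 2.12 with siTAZ #2 (SLC6A9, lower). SLC6A15 did not differ by call between the siRNAs (log2 difference 0.32, SE 0.17, FDR 0.21), except without siTAZ #1 replicate 1 (FDR 0.0048). Both rises kept their call in all 16 alternative analyses, with log2 fold changes of 4.52 to 4.91 and of 4.22 to 4.58.

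**Figure D2:**
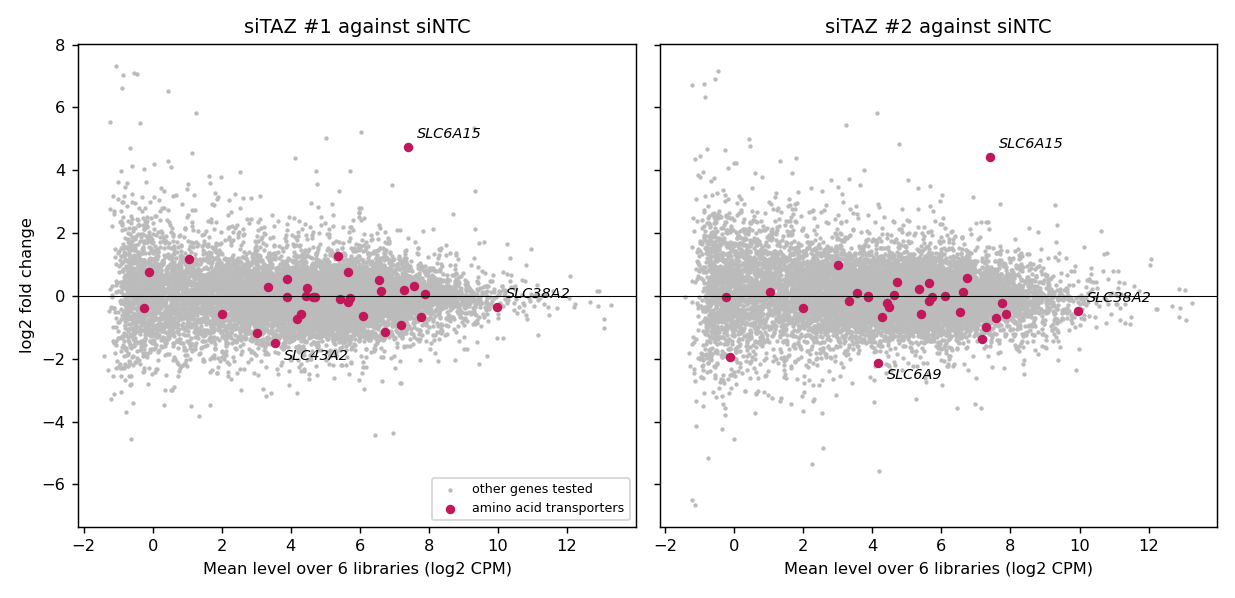
log2 fold change (y axis) against the mean level over the 6 libraries in log2 CPM (x axis) for all 14053 genes tested (grey) and the amino acid transporters (magenta), with siTAZ #1 on the left and siTAZ #2 on the right. SLC6A15, at 4.73 and 4.41, is far above the other transporters, and most genes with a larger rise have a lower mean level.

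Levels of different genes can be compared only per length, so CPM was divided by the length of the canonical transcript in kb. With siNTC, SLC38A2 (SNAT2, a sodium-coupled carrier of small neutral amino acids) had the highest level at 250 ± 6.12 CPM per kb (SD, n = 2), which was 32.6% of the sum of the 32 transporters. SLC3A2 followed at 140 ± 9.4 CPM per kb, then SLC1A5 at 89.8 ± 1.56, SLC7A5 at 50 ± 3.79 and SLC38A1 at 24.6 ± 1.15. The spreads of neighbours in this order did not overlap. SLC38A10 (20.5 ± 0.345), SLC7A11 (18.3 ± 0.423), SLC6A6 (16.5 ± 0.435) and SLC43A3 (16.0 ± 0.153) came next. The ranges of mean ± SD of SLC6A6 and SLC43A3 overlapped. At the other end, SLC1A3, SLC1A1, SLC7A8 and SLC16A10 were each at or below 0.339 CPM per kb.

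SLC6A15 ranked 24th of the 32 with siNTC, at 2.16 ± 0.38 CPM per kb. It ranked 4th with siTAZ #1 at 57.4 ± 9.27 and 4th with siTAZ #2 at 46.0 ± 4.67 CPM per kb. It then made up 8.12% and 7.22% of the summed level of the transporters, up from 0.282%. These ranks depend on the length used. With the merged length of all annotated exons, which is long for SLC6A15 and SLC3A2, SLC6A15 ranked 28th with siNTC and 9th with either siRNA, and SLC3A2 4th rather than 2nd with siNTC. That summed level was 759 and 775 CPM per kb with siNTC, 691 and 724 with siTAZ #1 and 646 and 630 with siTAZ #2. Both siNTC libraries had a higher sum than any siTAZ library. With merged exon lengths the groups were apart as well (514 and 521 with siNTC, 386 to 478 with siTAZ). In plain CPM, not divided by length, they were not, since the sums were 3110 and 3150 with siNTC, 2910 and 3120 with siTAZ #1 and 2640 and 2520 with siTAZ #2. Left without SLC6A15, the sums were 756 and 773, 640 and 660, and 603 and 580. The lower sum thus came with SLC6A15 moving the opposite way. With 2 libraries against 2, the smallest p that an exact permutation test of such a sum can give is 0.333, so it was not tested.

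**Figure D3:**
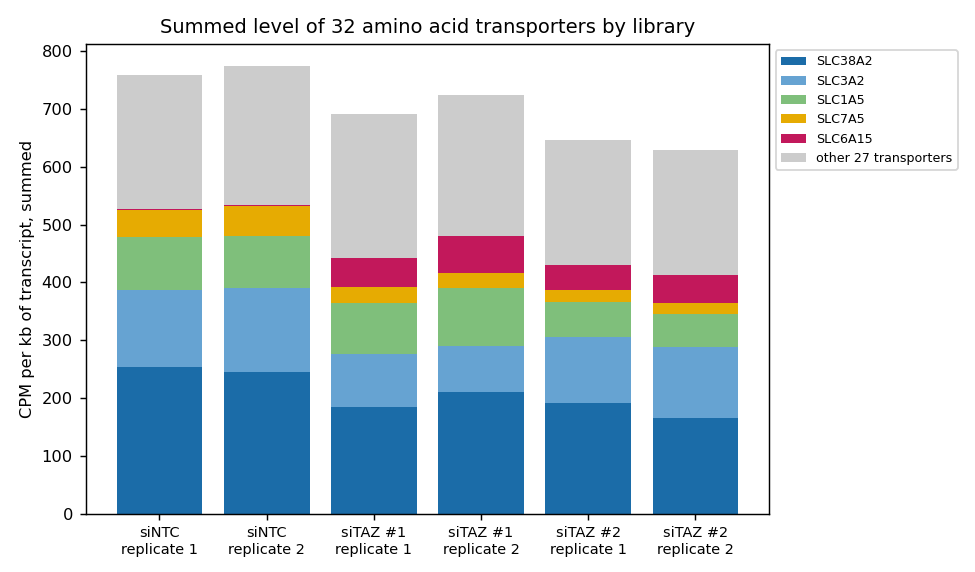
Summed level of the 32 transporters in each library, in CPM per kb of transcript (y axis), with the 4 transporters highest with siNTC and SLC6A15 as separate colours and all others in grey. The bars reach 759 and 775 with siNTC and 630 to 724 in the siTAZ libraries, and the magenta band of SLC6A15 is visible only in the latter.

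Among the heavy chain and its light chains, SLC7A5 (LAT1, the exchanger that takes up leucine and other large neutral amino acids) fell with both siRNAs. It was at 215 and 240 CPM with siNTC, at 125 and 116 CPM with siTAZ #1 and at 91.9 and 84.5 CPM with siTAZ #2. The groups did not overlap, and the siTAZ #2 libraries were the lowest. Its log2 fold change was -0.92 (SE 0.10, FDR 0.0033) with siTAZ #1 and -1.37 (SE 0.10, FDR 0.00081) with siTAZ #2, and both calls were kept in all 16 alternatives. The study lists SLC7A5 among the genes that both siRNAs lowered in these same libraries, so the list is not independent evidence. SLC7A5P1 and SLC7A5P2, pseudogenes whose reads could be mistaken for those of SLC7A5, had 11 to 148 counts per library.

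SLC3A2, the heavy chain, was at 251 and 276 CPM with siNTC, at 175 and 153 CPM with siTAZ #1 and at 213 and 233 CPM with siTAZ #2. The siNTC libraries were the highest, and those of siTAZ #1 the lowest. The change was -0.68 (SE 0.11, FDR 0.0095) with siTAZ #1, and -0.24 (SE 0.11, FDR 0.14) with siTAZ #2, which did not pass the test. The siTAZ #1 call was lost without siNTC replicate 1 (FDR 0.062) or siNTC replicate 2 (FDR 0.086), and the siTAZ #2 change passed without either siTAZ #1 library (FDR 0.039 each). Since SLC7A5 and SLC3A2 moved by different amounts, their ratio shifted within the libraries. Counts of SLC7A5 per count of SLC3A2 were 0.859 and 0.869 with siNTC, 0.714 and 0.759 with siTAZ #1 and 0.432 and 0.363 with siTAZ #2. The 3 groups did not overlap in this ratio, which was lowest with siTAZ #2.

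SLC7A11 (xCT, the light chain that imports cystine in exchange for glutamate) behaved differently. Its levels were 174 and 180 CPM with siNTC, 181 and 219 CPM with siTAZ #1 and 93.0 and 86.0 CPM with siTAZ #2. The siTAZ #2 libraries alone lay below siNTC. The log2 fold change was -0.98 (SE 0.11, FDR 0.0028) with siTAZ #2, kept in all 16 alternatives, and 0.18 (SE 0.11, FDR 0.31) with siTAZ #1. The latter passed only without siTAZ #1 replicate 1 (FDR 0.041). Per count of SLC7A5, SLC7A11 had 0.807 and 0.749 counts with siNTC, 1.45 and 1.89 with siTAZ #1 and 1.01 and 1.02 with siTAZ #2. This ratio was higher in all siTAZ libraries, with siTAZ #1 highest.

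The other light chains were not called against siNTC. SLC7A6 (y+LAT2) was at 73.4 and 81.0 CPM with siNTC, at 58.5 and 40.6 CPM with siTAZ #1 and at 73.7 and 82.1 CPM with siTAZ #2. It was lower in both siTAZ #1 libraries, which differed from each other, with a log2 fold change of -0.64 (SE 0.19, FDR 0.062). Leaving out siTAZ #1 replicate 1 (FDR 3.5e-05) or siTAZ #1 replicate 2 (FDR 0.045) brought it past the threshold. With siTAZ #2 the change was 0.01 (FDR 0.97). Of the exon bases of SLC7A6, 55.6% overlap other genes on the opposite strand, mainly SLC7A6OS, and the strand setting of the counting is not given in the sources used here. SLC7A7 (y+LAT1), at a mean of 4.78 CPM with siNTC, had changes of -0.56 and -0.37. SLC7A8 (LAT2), at 0.822 CPM, had changes of -0.40 and -0.02, and neither gene passed in any comparison.

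The cationic amino acid transporter SLC7A1 (CAT1), which carries arginine and lysine, was at 84.3 and 94.2 CPM with siNTC, at 134 and 122 CPM with siTAZ #1 and at 70.6 and 55.1 CPM with siTAZ #2. The siTAZ #1 libraries lay above siNTC and the siTAZ #2 libraries below, without overlap. The change with siTAZ #2 was -0.51 (SE 0.14, FDR 0.045). That with siTAZ #1 was 0.52 (SE 0.14, FDR 0.051), just over the threshold, which it passed in 10 of 16 alternatives. The siTAZ #2 call was lost without siNTC replicate 1 (FDR 0.11), siNTC replicate 2 (FDR 0.20) or siTAZ #2 replicate 2 (FDR 0.14). Without siTAZ #1 replicate 1 or replicate 2 the siTAZ #1 change had an FDR of 0.017 or 0.0045, and without siTAZ #2 replicate 1 or replicate 2 one of 0.043 or 0.046. SLC7A2 (CAT2), at 9.58 CPM with siNTC, had changes of 0.29 and -0.15 and was not called.

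In the SLC1 family, SLC1A5 (ASCT2, a sodium-dependent exchanger best known for glutamine) was lower with siTAZ #2 alone. It was at 262 and 256 CPM with siNTC, at 252 and 286 CPM with siTAZ #1 and at 178 and 167 CPM with siTAZ #2. The siTAZ #1 libraries lay on both sides of siNTC, and the siTAZ #2 libraries lay below all others. The log2 fold change with siTAZ #2 was -0.58 (SE 0.09, FDR 0.0073), and with siTAZ #1 0.06 (SE 0.09, FDR 0.69). Without siNTC replicate 1 or replicate 2 the siTAZ #2 call was narrowly lost (FDR 0.059 and 0.055). Its promoter stretch above holds TGATGCAA, but such a match does not say that a factor acts there.

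The other SLC1 members were not called against siNTC. SLC1A4 (ASCT1, a carrier of alanine, serine and cysteine) averaged 25.2 CPM with siNTC and had changes of -0.58 and -0.66. SLC1A3 (EAAT1, a glutamate carrier) averaged 1.33 CPM, with changes of 1.16 and 0.12. SLC1A1 (EAAT3, also a glutamate carrier) was at 1.27 and 0.379 CPM with siNTC, at 1.35 and 1.41 CPM with siTAZ #1 and at 0.280 and 0.121 CPM with siTAZ #2. The siNTC libraries of SLC1A1 differed more from each other than the siTAZ #1 libraries did, and its log2 fold changes of 0.75 (SE 0.67, FDR 0.48) and -1.96 (SE 0.80, FDR 0.12) did not pass.

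All 3 SLC6 members of the list were called with both siRNAs, as were 10.7% of all genes, and each followed its own pattern. The list was drawn up with earlier results of these data known. SLC6A9 (GlyT1, the glycine transporter) was at 29.8 and 29.1 CPM with siNTC, at 17.6 and 17.4 CPM with siTAZ #1 and at 5.75 and 7.85 CPM with siTAZ #2. The groups formed 3 separate steps, with siTAZ #2 lowest. Its change was -0.75 (SE 0.19, FDR 0.041) with siTAZ #1 and -2.12 (SE 0.20, FDR 0.0016) with siTAZ #2, a level 4.33-fold lower. The siTAZ #2 call was kept in all 16 alternatives. The smaller fall lost its call on leaving out siNTC replicate 1 (FDR 0.18) or siNTC replicate 2 (FDR 0.17).

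SLC6A6 (TauT), the taurine transporter, was at 106 and 110 CPM with siNTC, at 49.6 and 48.2 CPM with siTAZ #1 and at 158 and 164 CPM with siTAZ #2. Replicates agreed closely, and the siRNAs lay on opposite sides of siNTC. The log2 fold change was -1.14 (SE 0.08, FDR 0.001) with siTAZ #1 and 0.58 (SE 0.08, FDR 0.0043) with siTAZ #2. It was the 1 transporter called in opposite directions. The call of the fall was kept in all 16 alternatives, and that of the rise in all but the fit without siNTC replicate 1 (FDR 0.056). Taurine is not built into protein and is known as an osmolyte.

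**Figure D4:**
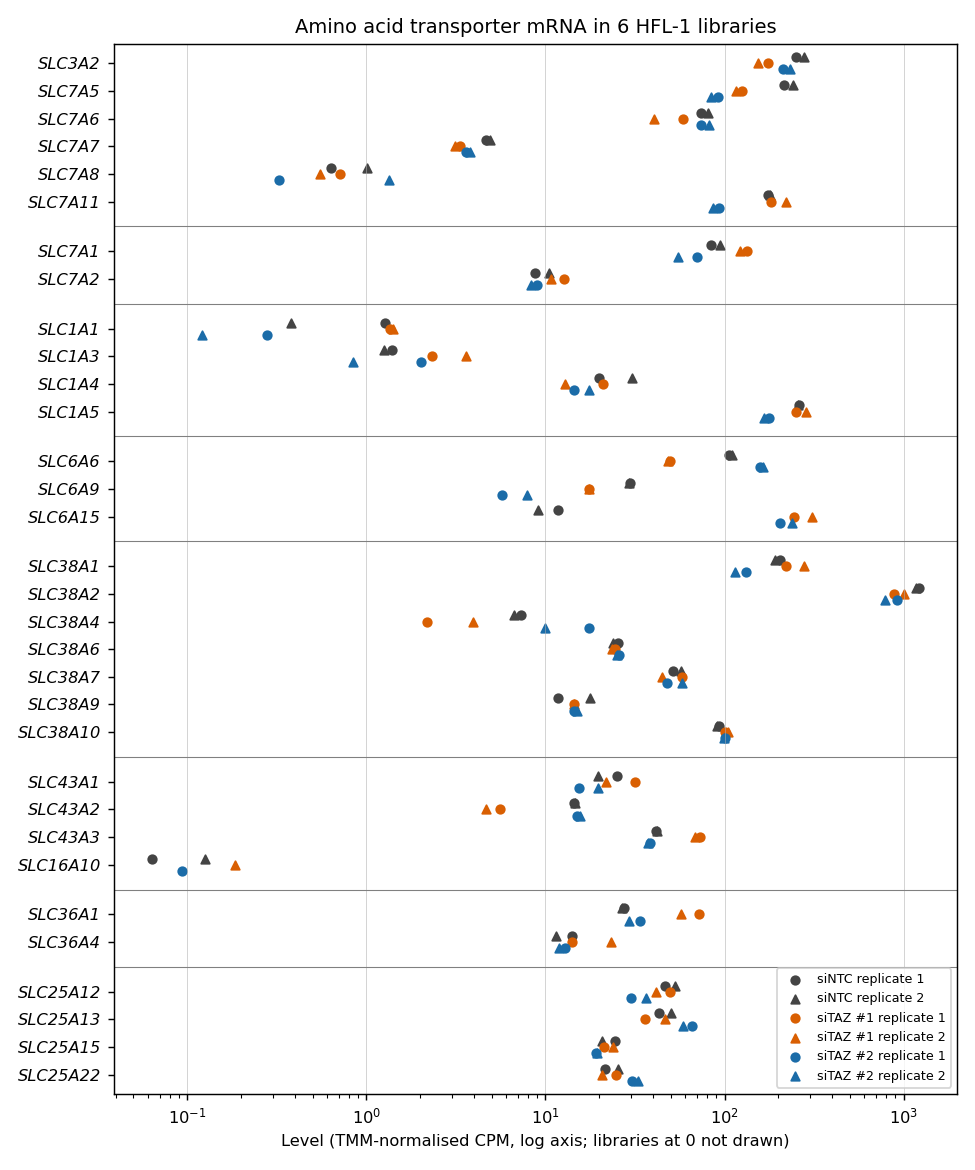
Level of each of the 32 transporters in each library, in TMM-normalised CPM on a log axis (x axis), with siNTC in grey, siTAZ #1 in orange, siTAZ #2 in blue, circles for replicate 1 and triangles for replicate 2. SLC6A15 moves from 9.09 and 11.7 CPM with siNTC to 205 CPM or more in every siTAZ library, whereas SLC6A6 has siTAZ #1 below and siTAZ #2 above siNTC.

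The SLC38 family takes up glutamine and small neutral amino acids at the cell surface or moves them across internal membranes. SLC38A2 was at 1220 and 1180 CPM with siNTC, at 880 and 1010 CPM with siTAZ #1 and at 921 and 791 CPM with siTAZ #2. Both siNTC libraries were higher than any siTAZ library. The change was -0.48 (SE 0.11, FDR 0.025) with siTAZ #2, while with siTAZ #1 it was -0.35 (SE 0.11, FDR 0.08). The siTAZ #2 call was lost without siNTC replicate 1 (FDR 0.13), siNTC replicate 2 (FDR 0.11) or siTAZ #2 replicate 2 (FDR 0.11), and the siTAZ #1 change passed without siTAZ #1 replicate 2 (FDR 0.0027).

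SLC38A1 (SNAT1), whose gene is next to SLC38A2 and SLC38A4 on chromosome 12, was at 205 and 192 CPM with siNTC, at 220 and 277 CPM with siTAZ #1 and at 132 and 114 CPM with siTAZ #2. The siTAZ #2 libraries were the lowest and the siTAZ #1 libraries the highest. Its change was -0.70 (SE 0.14, FDR 0.015) with siTAZ #2 and 0.32 (SE 0.14, FDR 0.16) with siTAZ #1. The siTAZ #2 call was lost without siNTC replicate 1 (FDR 0.094), siNTC replicate 2 (FDR 0.073) or siTAZ #2 replicate 2 (FDR 0.084), and the siTAZ #1 change passed without siTAZ #1 replicate 1 (FDR 0.0032). Although SLC38A1, SLC38A2 and SLC38A4 are neighbours, their changes differed from each other in size or sign.

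SLC38A4, a member known from liver, was at 7.29 and 6.69 CPM with siNTC, at 2.19 and 3.93 CPM with siTAZ #1 and at 17.6 and 9.91 CPM with siTAZ #2. It lay below siNTC with siTAZ #1 and above with siTAZ #2, with wide gaps between replicates. The changes were -1.17 (SE 0.39, FDR 0.089) and 0.98 (SE 0.38, FDR 0.11) and were not called. They passed in 5 and in 6 of the 16 alternatives in turn. Among these was the fit without the genes of the region of lost counts (FDR 0.015 and 0.023). Without siTAZ #1 replicate 2 the former change was -1.67, and the latter stayed at 0.98 without either siTAZ #1 library. The other family members were not called and had changes near 0. SLC38A6 had changes of -0.04 and 0.03, SLC38A7 (a lysosomal exporter of glutamine) of -0.08 and -0.03, SLC38A9 (the lysosomal arginine sensor) of -0.02 and 0.00, and SLC38A10 of 0.16 and 0.12.

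Among the facilitators, SLC43A2 (LAT4, which lets large neutral amino acids pass down their gradient) was at 14.5 and 14.6 CPM with siNTC, at 5.55 and 4.63 CPM with siTAZ #1 and at 15 and 15.6 CPM with siTAZ #2. Only the siTAZ #1 libraries stood apart. The change was -1.51 (SE 0.18, FDR 0.0048) with siTAZ #1, kept in all 16 alternatives, and 0.08 (SE 0.18, FDR 0.79) with siTAZ #2. SLC43A3, a relative known as a carrier of purine nucleobases, was at 41.6 and 42.2 CPM with siNTC, at 73.3 and 68.5 CPM with siTAZ #1 and at 38.2 and 37.2 CPM with siTAZ #2. It rose with siTAZ #1 (0.76, SE 0.11, FDR 0.0068) but not with siTAZ #2 (-0.15, SE 0.11, FDR 0.33). The call, not the size of the change, was lost without siNTC replicate 1 (FDR 0.077) or siNTC replicate 2 (FDR 0.073). Of its exon bases, 29.9% overlap another protein-coding gene on the same strand. SLC43A1 (LAT3), at 22.3 CPM with siNTC, had changes of 0.25 and -0.35 and was not called.

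SLC36A1 (PAT1), a proton-coupled carrier known from lysosomes, was at 27.3 and 26.6 CPM with siNTC, at 71.7 and 57.3 CPM with siTAZ #1 and at 33.5 and 29.1 CPM with siTAZ #2. All siTAZ libraries were above siNTC, those of siTAZ #1 by far. Its change was 1.26 (SE 0.16, FDR 0.0052) with siTAZ #1 and 0.22 (SE 0.16, FDR 0.34) with siTAZ #2. Without siNTC replicate 1 or replicate 2 the siTAZ #1 call was lost (FDR 0.061 and 0.064), while the change lay between 1.09 and 1.41 in all 16 alternatives. SLC36A4, at 12.8 CPM with siNTC, had changes of 0.55 and -0.05 and was not called.

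In mitochondria, SLC25A12 (aralar) and SLC25A13 (citrin) both exchange aspartate for glutamate. SLC25A12 was at 46.2 and 52.6 CPM with siNTC, at 49.9 and 41.5 CPM with siTAZ #1 and at 30.0 and 36.2 CPM with siTAZ #2. SLC25A13 was at 43.0 and 50.4 CPM with siNTC, at 36.1 and 46.2 CPM with siTAZ #1 and at 65.9 and 58.6 CPM with siTAZ #2. With siTAZ #2 the former lay below and the latter above all siNTC libraries. Counts of SLC25A13 per count of SLC25A12 were 0.931 and 0.958 with siNTC, 0.724 and 1.11 with siTAZ #1 and 2.19 and 1.62 with siTAZ #2. This ratio of the carriers was higher in both siTAZ #2 libraries than in any other library. SLC25A12 changed by -0.58 (SE 0.16, FDR 0.045) with siTAZ #2 and by -0.11 (SE 0.16, FDR 0.67) with siTAZ #1. SLC25A13 changes were 0.41 (SE 0.17, FDR 0.12) with siTAZ #2 and -0.18 (SE 0.17, FDR 0.48) with siTAZ #1. The SLC25A12 call was lost without any of siNTC replicate 1 (FDR 0.11), siNTC replicate 2 (FDR 0.21), siTAZ #2 replicate 1 (FDR 0.19) or siTAZ #2 replicate 2 (FDR 0.079). The SLC25A13 change with siTAZ #2 passed without siTAZ #1 replicate 1 (FDR 0.014) or replicate 2 (FDR 0.013). SLC25A15 (the ornithine carrier) and SLC25A22 (a glutamate carrier) were not called, with changes of 0.00 and -0.23, and of -0.05 and 0.43.

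The siRNAs were then compared with each other. Of the transporters, 6 were lower and 9 higher with siTAZ #1 than with siTAZ #2 (16 not called), while 13.4% of all genes were lower and 15.2% higher (28.6% called in either direction). The median log2 difference was 0.23 over the transporters and -0.01 over all genes, and 10 of the 31 (32.3%) differed by at least 2-fold, against 17.1% of all genes. Against siNTC that share was 19.4% of the transporters and 14.5% of all genes with siTAZ #1, and 12.9% and 16.5% with siTAZ #2. The 6 fell to 2 when siTAZ #2 replicate 1 was left out, and to 3 when siTAZ #2 replicate 2 or either siNTC library was.

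Calls kept in all 16 alternatives covered 6 transporters. SLC7A11 was higher with siTAZ #1 by 1.16 (SE 0.11, FDR 0.0018), SLC7A1 by 1.03 (SE 0.14, FDR 0.0049), SLC38A1 by 1.02 (SE 0.14, FDR 0.0045) and SLC6A9 by 1.37 (SE 0.19, FDR 0.0052). These carry cystine, cationic amino acids, small neutral amino acids and glycine, and each had its lowest level with siTAZ #2. SLC6A6 had a log2 difference of -1.72 (SE 0.08, FDR 0.0005) and SLC43A2 one of -1.59 (SE 0.18, FDR 0.0028), so both were lower with siTAZ #1. SLC1A5 (0.64, SE 0.09, FDR 0.0053), SLC43A3 (0.91, SE 0.11, FDR 0.0029) and SLC36A1 (1.04, SE 0.16, FDR 0.0061) were also higher with siTAZ #1. Across the 16 alternatives, each lost its call only in edgeR's exact test (FDR 0.18, 0.088 and 0.071 in turn). SLC38A4 was lower with siTAZ #1 by call (-2.15, SE 0.40, FDR 0.012), but not without siTAZ #2 replicate 1 (FDR 0.059).

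The remaining 5 calls were lost on leaving out single libraries. SLC7A5 differed by 0.45 (SE 0.10, FDR 0.019), with an FDR of 0.059 and 0.11 on leaving out replicate 1 and replicate 2 of siTAZ #2. SLC3A2 differed by -0.44 (SE 0.11, FDR 0.027), with an FDR of 0.068 on leaving out either siNTC library, and of 0.071 and 0.15 on leaving out replicate 1 and replicate 2 of siTAZ #2. For SLC7A6 (-0.65, SE 0.19, FDR 0.047) the same 4 fits gave 0.10 (either siNTC library), 0.12 and 0.21. For SLC25A13 (-0.60, SE 0.17, FDR 0.043) they gave 0.08, 0.081, 0.18 and 0.11. SLC1A1, the transporter with the widest difference (2.70, SE 0.77, FDR 0.046), had an FDR of 0.054 on leaving out siNTC replicate 1, of 0.064 on leaving out siTAZ #1 replicate 2, and of 0.12 and 0.20 on leaving out replicate 1 and replicate 2 of siTAZ #2. SLC25A12, not called here (0.47, FDR 0.082), passed without siTAZ #1 replicate 2 (FDR 0.0083).

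**Figure D5:**
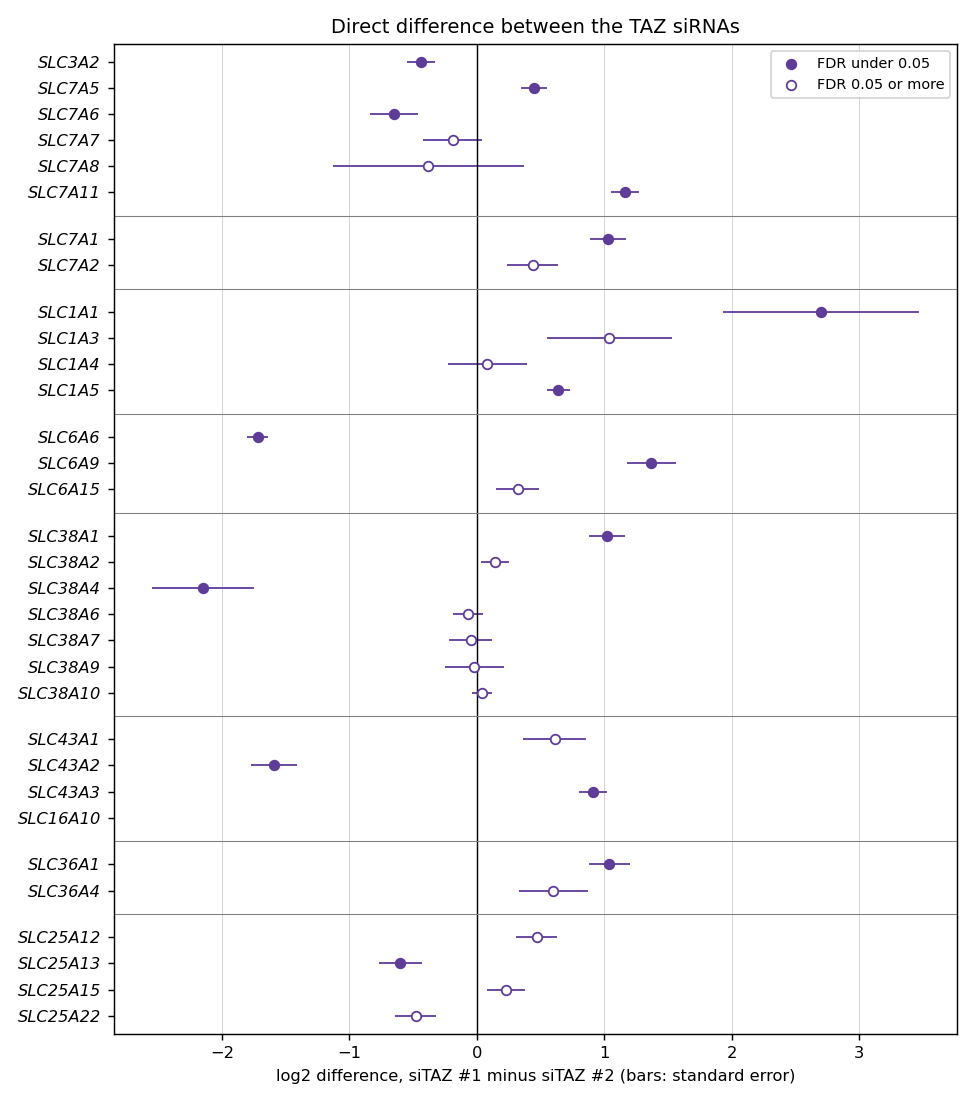
Direct log2 difference of each transporter, siTAZ #1 minus siTAZ #2 (x axis), with bars for the standard error and filled points for an FDR under 0.05. Differences run from -2.15 (SLC38A4) to 2.70 (SLC1A1), and SLC6A15 is among the open points at 0.32.

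Other genes of amino acid transport and sensing were taken from lists. Of 36 other amino acid transporter genes, 12 could be tested and the remaining 24 had at most 0.521 CPM in any library. With siTAZ #1, 3 of the 12 were called lower (9.78% of all genes), and with siTAZ #2, 2 were (14.4%), and the others were not called. SLC38A5, on X in the region of lost counts, was at 30.2 and 34.5 CPM with siNTC, at 27.7 and 0.981 CPM with siTAZ #1 and at 16.9 and 12.6 CPM with siTAZ #2, and with an SE of 1.2 on the log2 scale a change of this size was not detectable. SLC7A14 (known from lysosomes) averaged 8.76 CPM (siNTC), 2.27 CPM (siTAZ #1) and 1.06 CPM (siTAZ #2) in the groups. Its changes were -1.95 (FDR 0.0096) and -3.05 (FDR 0.0023). The study lists SLC7A14 too among genes lowered by both siRNAs in these libraries. SLC25A44, the mitochondrial carrier of branched-chain amino acids, averaged 69.4, 35.9 and 35.8 CPM, with changes of -0.95 (FDR 0.012) and -0.96 (FDR 0.0088).

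In a list of 22 genes of the amino acid response, all tested, 9 were called lower and 1 higher with siTAZ #1 (9.78% and 10.8% of all genes), and 18 lower with siTAZ #2 (14.4% of all genes). All 9 called lower with siTAZ #1 were called lower with siTAZ #2 too, and 10.7% of all genes were called with both. ASNS, which makes asparagine, had group means of 149 CPM for siNTC, 61.5 for siTAZ #1 and 31.9 for siTAZ #2. Its changes were -1.28 (FDR 0.0068) with siTAZ #1 and -2.22 (FDR 0.0011) with siTAZ #2. The transcription factor ATF4 itself was at 520 and 534 CPM with siNTC, at 594 and 549 CPM with siTAZ #1 and at 233 and 239 CPM with siTAZ #2. It was lower with siTAZ #2 alone, with changes of -1.16 (FDR 0.00074) there and 0.12 (FDR 0.34) with siTAZ #1. The 6 transporters called lower with siTAZ #2 only (SLC7A11, SLC7A1, SLC1A5, SLC38A1, SLC38A2 and SLC25A12) have these ATF4 values beside them, and ATF4's part in their levels was not tested. Of these 6, SLC38A2 (log2 difference 0.14, FDR 0.41) and SLC25A12 (0.47, FDR 0.082) were not called different between the siRNAs. SLC7A5 and SLC6A9 were called lower with both siRNAs, and ATF4's part in their levels was not tested either. CEBPB, a partner of ATF4 at such elements, had group means of 57.3 CPM for siNTC, 158 for siTAZ #1 and 61.2 for siTAZ #2, and was the 1 gene of the list called higher.

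Of 21 genes of lysosomal amino acid sensing, 19 were found by symbol. By call, siTAZ #1 had 1 of them lower and 2 higher, and siTAZ #2 had 2 lower and 2 higher. Over all genes these shares were 9.78% and 10.8%, and 14.4% and 14.1%. One of the 19, RRAGB on X, lies in the region of lost counts, at 11.7 and 0.46 CPM in the siTAZ #1 libraries. FLCN, which takes part in mTORC1 signaling at the lysosome, was called higher with both siRNAs (0.54, FDR 0.041 and 0.47, FDR 0.049) and was at 48.6 and 44.9 CPM with siNTC, at 74.1 and 61.5 CPM with siTAZ #1 and at 61.0 and 68.2 CPM with siTAZ #2.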

How the data were processed

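Ion Proton reads of HFL-1 libraries had been aligned to hg19 with TMAP and counted per gene with HTSeq 0.6.1, as the study's methods and the submitters' processing notes state. The deposited values are raw read counts, which the authors did not normalize. The strand setting and counting mode are not given in the sources used here. The table lists gene symbols, and 13 of its 23368 entries carry a date instead and were left out (0.0458% to 0.0506% of a library's counts). Positions came from GENCODE on GRCh37, the build of the files, and promoters from RefSeq on GRCh38.p14.

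Counts were analysed in R 4.3.3 with edgeR 4.0.16: filterByExpr by group, TMM, and the quasi-likelihood test (1 fit, 6 libraries), adjusted by Benjamini-Hochberg over 14053 genes at FDR 0.05. The SE is the size of the log2 fold change divided by the square root of F. With 2 libraries per group, the spread is borrowed across groups and genes. Alternatives were DESeq2 1.42.0, edgeR's exact test, RLE and library-total scaling, no filter, a replicate block, fitting the 4 libraries of a comparison alone, dropping each library in turn, and dropping the genes of the region with near-missing counts. A GC offset, a crossed replicate block and merged exon lengths were chosen after seeing the data. The transporters and the gene lists were chosen with earlier results of these data known. Library values, SE and FDR are given for transporters called in any of 3 comparisons, and other transporters by level and change. ATF4, CEBPB, CD68, RRAGB, SLC38A5 and the genes near SLC6A15 are named outside that rule, chosen after their values were seen. An item withheld for evaluation is not reported here.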

Additional observations from a re-analysis of the deposited data

Results flagged for a closer look

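In 15 transporters the effects of the siRNAs differed by the direct test (log2 difference, siTAZ #1 minus siTAZ #2, edgeR's quasi-likelihood test, FDR under 0.05), which is why they are listed. The difference was positive for SLC1A1 (2.70), SLC6A9 (1.37), SLC7A11 (1.16), SLC36A1 (1.04), SLC7A1 (1.03), SLC38A1 (1.02), SLC43A3 (0.91), SLC1A5 (0.64) and SLC7A5 (0.45). It was negative for SLC38A4 (-2.15), SLC6A6 (-1.72), SLC43A2 (-1.59), SLC7A6 (-0.65), SLC25A13 (-0.60) and SLC3A2 (-0.44). WWTR1 averaged 27.4 CPM with siTAZ #1 and 44.6 CPM with siTAZ #2, and its part in these differences was not tested.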

How the results depend on the processing

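Each of 54 changes in 18 transporters was recomputed under up to 16 alternatives. Of 862 values, 732 kept their direction and call, 73 lost a call, 49 gained one and 8 changed sign. Those 8 were uncalled values near 0, namely with a GC offset SLC7A11 with siTAZ #1 (-0.12), SLC43A2 with siTAZ #2 (-0.02) and SLC38A2 between the siRNAs (-0.02), SLC7A6 with siTAZ #2 without a filter (-0.01), and values on leaving out a library. The latter ranged from -0.04 to 0.15 for SLC1A5 and from -0.25 to 0.02 for SLC25A12 with siTAZ #1 (sign changed without siTAZ #1 replicate 2), and from -0.09 to 0.09 for SLC7A6 with siTAZ #2 (-0.08 without siNTC replicate 1, -0.09 without siTAZ #2 replicate 2). WWTR1 stayed called with both siRNAs in all 16. Without the genes of the region with near-missing counts, no call was lost. Gained with siTAZ #1 were SLC38A4 (FDR 0.015), SLC7A6 (FDR 0.0053), SLC7A1 (FDR 0.01) and SLC38A2 (FDR 0.014). Gained with siTAZ #2 were SLC38A4 (FDR 0.023) and SLC25A13 (FDR 0.035), and between the siRNAs SLC25A12 (FDR 0.031).

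Counts of transporters moved more, and the share of all genes called, given in parentheses, moved the same way in the settings named singly here. It did not do so in every setting. With a crossed block, chosen after seeing the data, 7 rather than 5 were lower with siTAZ #1, at a share of 8.85% rather than 9.78%. For siTAZ #1, the 5 called lower (9.78%) became 8 with DESeq2 (13.6%), 8 without the genes of the region with near-missing counts (14.8%) and 3 with the exact test (3.02%). For siTAZ #2, the 2 called higher (14.1%) became 4 with DESeq2 (17.1%), 4 without those genes (19.5%), 5 with the exact test (23.7%) and 5 in the fit of 4 libraries (22.3%). Between the siRNAs, the 6 lower (13.4%) became 3 with the exact test (4.57%) and 3 in the fit of 4 libraries (9.27%), and the 9 higher (15.2%) became 5 with the exact test (5.26%). Leaving out each library gave ranges of 3 to 8 lower (1.89% to 17.8%) and 1 to 7 higher (1.91% to 17.0%) with siTAZ #1, 3 to 10 lower (4.88% to 20.6%) and 1 to 5 higher (4.2% to 20.8%) with siTAZ #2, and 2 to 7 lower (5.31% to 19.3%) and 7 to 11 higher (7.01% to 19.3%) between the siRNAs. The ends of a range of counts and of the range of shares beside it do not always come from the same fit. The cause was not tested.

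Replicate numbers are shared across groups, and blocking on them gave 5 lower with siTAZ #2 (10.1%) and 3 lower between the siRNAs (9.44%). Over 11531 genes, deviations of same-numbered libraries correlated at -0.01 and 0.02 for siNTC with siTAZ #1 and siTAZ #2. For siTAZ #1 with siTAZ #2 the correlation was -0.31. These values do not tell which libraries, if any, were handled together. A crossed block, chosen after seeing the data, gave 7 lower and 3 higher with siTAZ #1 (8.85% and 9.73%), 7 and 2 with siTAZ #2 (13.5% and 13.2%), and 6 and 10 between the siRNAs (12.7% and 14.7%). Transporters with few counts, such as SLC1A1, SLC1A3 and SLC7A8, have standard errors too wide for a 2-fold change to be detectable here.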

Other observations

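The genes on either side of SLC6A15 on chromosome 12 were looked at after its rise had been seen. LRRIQ1, the second gene on that side in the table (85430092 to 85658235, GRCh37), had 3 and 7 counts with siNTC, 42 and 106 with siTAZ #1 and 89 and 35 with siTAZ #2. All 4 siTAZ libraries were above both siNTC libraries, with log2 fold changes of 3.22 (SE 0.57, FDR 0.015) and 3.29 (SE 0.57, FDR 0.01). TSPAN19, which lies between them, had 0 and 0 counts with siNTC, 1 and 28 with siTAZ #1 and 0 and 5 with siTAZ #2, too few to test. On the other side, TMTC2 had group means of 24.9 CPM (siNTC), 11.4 CPM (siTAZ #1) and 10.5 CPM (siTAZ #2). It fell with both siRNAs (-1.12, FDR 0.0097 and -1.24, FDR 0.0052). CCDC59 and C12orf26, farther on that side, were not called.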
